A study of Mus musculus with 54 samples.

Results

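The genes of inhibin, activin and anti-Müllerian hormone (AMH) signalling were measured in mouse ovary and testis: Inha, Inhba, Inhbb, Fst, Acvr2a, Acvr2b, Amh and Amhr2. They were chosen by symbol, 8 of the 26264 genes in each count table, and all 8 were found in both tables and passed the filter on low counts in every comparison. The study asked whether a mixture of drugs in drinking water changed gene expression in the gonads of the exposed animals (F1) and of their offspring (F2). F1 pups were exposed from 8.5 days post coitum, through the dam and then directly. The labels give 30 days post partum for females and 35 for males as the age at which tissue was taken, with no separate age for F1 and F2. The F1 control received water with 0.001% ethanol. At dose 1 the water contained, in ng/L, ibuprofen at 11.3 and its metabolite 2-hydroxyibuprofen at 90 with the anti-inflammatory drug diclofenac at 22.5 and the synthetic estrogen ethinyl-estradiol at 2.25. At dose 2 these were 113, 225, 112 and 45 ng/L. The F2 labels give the groups of the parents and no dose for the F2 animals, and the treatment text, which is the same for every library, does not say whether F2 animals drank the mixture themselves: a control cross, maternal crosses (dose 1 or dose 2 mother, control father), paternal crosses (dose 1 or dose 2 father, control mother) and a biparental dose 2 cross. Each of the 18 groups of tissue, generation and exposure had 3 libraries, called A, B and C, 54 in all. The labels do not say whether these came from separate animals or litters, so p-values measure the spread between the libraries, which may be technical. No strain is given in the labels used here.

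Inhibins and activins are dimers of the TGF-beta family. Inha encodes the alpha subunit, which joins a beta subunit to make inhibin, the gonadal hormone that restrains FSH release from the pituitary; Inhba and Inhbb encode the beta A and beta B subunits, which pair with each other to make activins. Follistatin, from Fst, binds activin and keeps it from its receptors, of which Acvr2a and Acvr2b are the type II subunits. AMH is made by immature Sertoli cells, whose hormone removes the Müllerian ducts of the male fetus, and by granulosa cells of growing follicles; Amhr2 encodes its own type II receptor.

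The RNA came from ovary or testis tissue, in which fewer cells of a type and less RNA per cell cannot be told apart. Levels are in CPM, a gene's count scaled to the total count of its library. The total count of a library was 31816283 to 122396602 in F1 testis, 31553824 to 48237343 in F2 testis, 36640553 to 57383270 in F1 ovary and 37912606 to 84721392 in F2 ovary. The 10 granulosa cell markers summed to between 4233 and 6061 CPM in ovary and 63.5 to 104 CPM in testis, and Foxl2, which defines granulosa cells, was at 216 to 464 CPM in ovary and at most 0.566 CPM in testis. Some libraries stood apart on the first principal component of their tissue and generation: F1 ovary control A (90.7, with the others at -38.8 to 6.6), F2 ovary maternal dose 1 C (89.9), and F1 testis dose 2 B and C (-54.3 and 74.3). In F1 ovary control A the 6 elongating spermatid markers summed to 1279 CPM, 7.71% of the median F1 testis library, against 10.5 to 90.8 CPM in the other 8 F1 ovary libraries and at most 0.660 CPM in F2 ovary. The results on the 8 genes in F1 ovary, and those on the pathway genes between generations and tissues, were also computed without control A; values without it are given where they bear on a result.

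Sequences upstream of 3 of these genes are shown because their expression sets the range of the family: Inhba differed most between the tissues, whereas Acvr2a and Amhr2 differed least. They are the 250 bases before the RefSeq transcript start (mouse build GRCm38.p6, plus strand, not the build of the deposited counts), read 5′ to 3′, with each CG dinucleotide in capitals. The Inhba stretch is chr13:16011601-16011850, that of Acvr2a chr2:48813859-48814108 and that of Amhr2 chr15:102445117-102445366.
Inhba: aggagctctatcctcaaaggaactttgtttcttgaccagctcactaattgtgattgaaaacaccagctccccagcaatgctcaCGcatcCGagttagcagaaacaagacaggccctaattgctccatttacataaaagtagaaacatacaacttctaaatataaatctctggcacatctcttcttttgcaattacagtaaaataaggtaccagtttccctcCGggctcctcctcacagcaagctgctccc
Acvr2a: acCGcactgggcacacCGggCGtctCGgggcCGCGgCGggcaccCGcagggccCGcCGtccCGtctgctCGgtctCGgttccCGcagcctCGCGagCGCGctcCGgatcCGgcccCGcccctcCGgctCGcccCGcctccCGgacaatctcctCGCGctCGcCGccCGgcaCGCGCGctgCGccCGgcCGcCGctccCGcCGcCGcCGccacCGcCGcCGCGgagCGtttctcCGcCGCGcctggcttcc
Amhr2: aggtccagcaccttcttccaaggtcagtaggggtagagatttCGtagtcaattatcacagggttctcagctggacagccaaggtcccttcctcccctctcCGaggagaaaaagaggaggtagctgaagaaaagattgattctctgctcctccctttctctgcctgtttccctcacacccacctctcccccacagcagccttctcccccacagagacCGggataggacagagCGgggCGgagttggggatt
Acvr2a had 49 CG dinucleotides and a GC content of 82.0%, while Inhba had 3 at 43.2% and Amhr2 had 5 at 55.2%. The median over 32851 windows of the same length was 6, at 52.4%. The letters AAGGTCA, a motif of the kind bound by Nr5a1 and other orphan nuclear receptors, were searched on both strands. They were found in Amhr2, starting 231 bases before the transcript start on the gene's strand, and not in the other pair; 4.08% of all windows hold them. A match of letters is not a measured site. The table holds windows for 6 of the 8 genes and none for Amh or Fst.

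Unexposed ovary expressed most of the family far above unexposed testis, as the plot of ovary over testis shows. In F1 controls 7 of the 8 genes passed the edgeR quasi-likelihood test at a Benjamini-Hochberg adjusted p under 0.05, 6 higher and 1 lower in ovary, where 84.7% of all genes tested passed; in F2 control crosses all 8 passed, 7 higher and 1 lower, against 86.5% of all genes. Shares that high among all genes mean that passing sets no gene apart here, and the sizes are what is described; the tissues also differed in age. The median over the 8 genes was 4.53 (log2) in F1 and 5.40 in F2, beside -0.05 over all genes in F1 and 0.05 in F2.

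Among the ligand subunits, Inhba was at 881, 1323 and 689 CPM in the 3 F1 control ovaries and at 0.845, 0.770 and 0.508 CPM in the F1 control testes. The log2 difference was 9.97 (SE 0.624, edgeR adjusted p = 7.88e-18), and in F2 it was 10.01 (SE 0.626). Fst, the activin antagonist, was at 429.8, 451 and 439 CPM in F1 control ovary and at 0.924, 0.684 and 0.870 CPM in testis, a difference of 8.61 (SE 0.256). In testis these 2 genes rest on few reads, 19 to 121 counts a library for Inhba and 21 to 109 for Fst. The GENCODE annotation places Inhba within B230303A05Rik on the opposite strand, which was at 0.134 to 1.85 CPM in testis and at most 0.237 CPM in ovary. With the strand setting of the counting not given in the sources used here, the testis value of Inhba is uncertain.

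Inha was the most abundant of the 8 in ovary. Its F1 control ovaries were at 3511, 4198 and 4012 CPM and its F1 control testes at 132, 115 and 138 CPM (log2 difference 4.48, SE 0.178). Inhbb was at 861, 1567 and 899 CPM against 37.1, 30.0 and 36.6 CPM (4.57, SE 0.238). Amh was at 298, 361 and 354 CPM against 6.52, 5.00 and 6.16 CPM (5.40, SE 0.254). For these 3 genes every ovary library of either control group lay above every testis library. Such separation was the rule between the tissues. In F1 controls 6 of the 8 genes did not overlap, beside 86.9% of all genes. In F2 control crosses 7 of the 8 did not, beside 88.7%.

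The receptors differed less. Acvr2b was at 49.6, 50.5 and 41.8 CPM in F1 control ovary and at 8.29, 7.85 and 7.57 CPM in testis, a log2 difference of 2.13 (SE 0.140). Acvr2a was at 33.0, 31.6 and 30.2 CPM against 30.6, 23.4 and 23.4 CPM, and its difference of -0.15 with TMM (trimmed mean of M-values) scaling did not pass in F1, where plain CPM put its mean higher in ovary (31.6 ± 1.42 against 25.8 ± 4.15 CPM, n = 3 each); in F2 it was -0.72 (edgeR adjusted p = 0.00191). Amhr2 was at 214, 216 and 236 CPM in ovary and 205, 203 and 222 CPM in testis in F1, groups that overlapped, with a difference of -0.37 (edgeR adjusted p = 0.0174). In F2 it was at 210.3, 289 and 233 CPM against 137, 157 and 158 CPM, with a difference of 0.37 (edgeR adjusted p = 0.0170). The sign of the Amhr2 difference in both generations, and that of Acvr2a in F1, depends on scaling. Relative log expression (RLE) size factors in place of TMM moved the median of all genes from -0.05 to -0.36 in F1 and from 0.05 to -0.37 in F2, and put Amhr2 at -0.04 in F2 and Acvr2a at -0.46 in F1 (edgeR adjusted p = 0.0280). The differences of the other 6 genes kept their direction and their call under RLE in both generations. Without F1 ovary control A the F1 value of Amhr2 was -0.30 (edgeR adjusted p = 0.0790), and it was -0.29 without F1 testis control C (edgeR adjusted p = 0.0870). In F2 Amhr2 also missed the threshold without testis control cross A (0.32) or ovary control cross B (0.25). The other 7 genes kept their F1 call or lack of one without F1 ovary control A, with Inhba at 10.07 and Fst at 8.67.

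**Figure D1:**
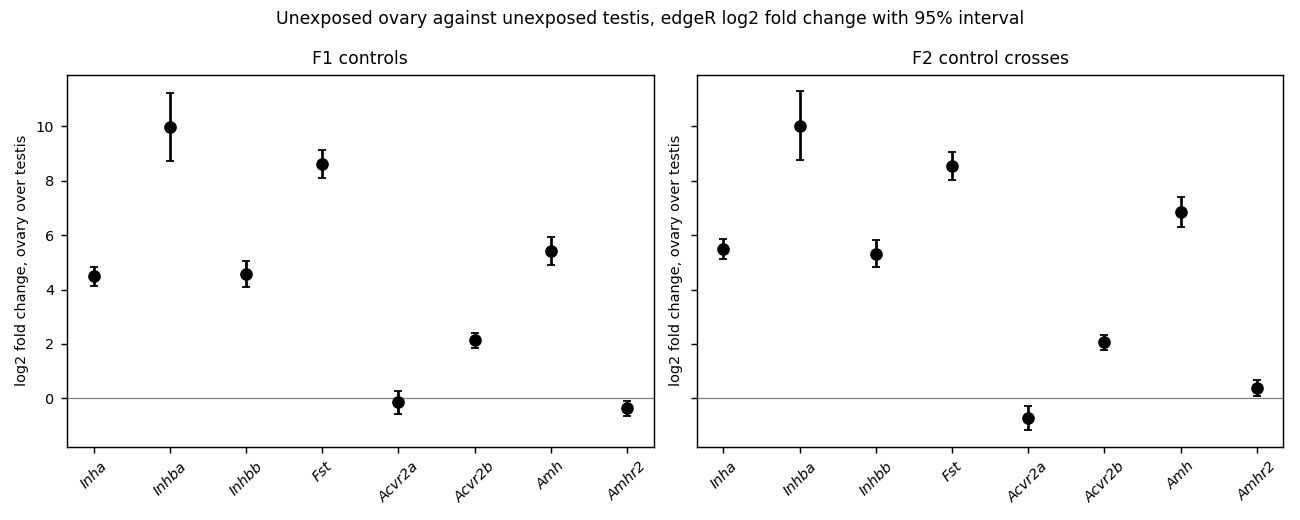
Log2 fold change of ovary over testis (vertical axis) for each of the 8 genes in F1 controls and F2 control crosses, from edgeR, with points for estimates and bars for 95% intervals (n = 3 libraries per group). Inhba and Fst sit highest, and Acvr2a and Amhr2 lie near 0.

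Scaled by exon length (union of exons in GENCODE vM21), the order of levels within F2 ovary ran from Inha, with a median of 3556 CPM per kb, through Inhbb at 323, Amh at 280.2, Amhr2 at 131, Inhba at 108 and Fst at 86.6, to Acvr2b at 8.41 and Acvr2a at 3.59 CPM per kb. In F2 testis it ran from Amhr2 at 77.2 and Inha at 70.0, through Inhbb at 6.40, Acvr2a at 5.36, Amh at 2.26 and Acvr2b at 1.90, to Fst at 0.204 and Inhba at 0.110 CPM per kb. In the ovary the alpha subunit thus had the highest level per length of the 8, and in testis the AMH receptor and the alpha subunit stood above the other 6. Neighbours in this order often overlapped over the 18 libraries. In ovary Inhbb (251 to 454 CPM per kb) overlapped with Amh (198 to 481), Amh narrowly with Amhr2 (102 to 199), Amhr2 with Inhba (17.9 to 177) and Inhba with Fst (58.5 to 117). Inha stood clear above Inhbb, Fst above Acvr2b (6.97 to 12.4) and Acvr2b above Acvr2a (1.05 to 5.30). In testis Amhr2 (68.1 to 86.9 CPM per kb) overlapped with Inha (51.9 to 87.2), Inhbb (5.32 to 7.73) with Acvr2a (4.65 to 5.76), Amh (1.61 to 3.33) with Acvr2b (1.70 to 2.19) and Fst (0.124 to 0.312) with Inhba (0.0756 to 0.175), while these pairs were clear of one another.

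Across the 9 groups of a tissue the group means of these genes differed by up to 2.44 times, as the plots of CPM per library show. The highest group mean was 1.35 times the lowest for Amhr2 in ovary and 2.44 times for Inhba in ovary, with the other 6 between; in testis this ratio ran from 1.14 for Acvr2b to 1.97 for Amh. When the groups were ordered by mean, the mean ± SD ranges of neighbours overlapped in all 8 neighbouring pairs for every gene in testis and for 6 genes in ovary. For Acvr2a and Acvr2b in ovary 7 of 8 pairs overlapped; the exceptions were F1 dose 1 against F1 dose 2 for Acvr2a and F1 dose 1 against the F2 maternal dose 2 cross for Acvr2b. The widest spread belonged to Inhba in ovary, which ran from 114 CPM in F2 maternal dose 1 C to 1444 CPM in F1 dose 1 B.

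The order of group means in ovary, each with its SD over 3 libraries, followed generation for most of the family. Such a difference is not particular to these genes. Between unexposed F2 and F1 ovary 20.8% of all genes passed and 36.2% did not overlap, beside 1 and 2 of the 8 genes. Inha ran from 5815 ± 408 CPM in the F2 paternal dose 1 cross to 3506 ± 264 CPM in F1 dose 2, with the 3 F1 groups below the 6 F2 groups. The same split held for Amh, from 607 ± 209 CPM in the F2 maternal dose 1 cross to 294 ± 41.6 CPM in F1 dose 1, and for Amhr2, from 299.9 ± 85.4 CPM in the F2 maternal dose 1 cross to 222 ± 12.5 CPM in F1 controls. The type II activin receptors had the opposite order, with the 3 F1 groups on top. Acvr2a ran from 31.6 ± 1.42 CPM in F1 controls to 15.5 ± 8.24 CPM in the F2 maternal dose 1 cross. Acvr2b ran from 47.3 ± 4.76 CPM in F1 controls to 30.1 ± 2.57 CPM in the F2 biparental dose 2 cross. The beta subunits and follistatin were mixed. Inhba ran from 1174 ± 236 CPM in F1 dose 1 to 480.3 ± 25.9 CPM in the F2 paternal dose 2 cross, Inhbb from 1904 ± 27.04 CPM in the F2 paternal dose 1 cross to 991 ± 449 CPM in F1 dose 2, and Fst from 492 ± 30.9 CPM in the F2 paternal dose 1 cross to 326 ± 26.4 CPM in F1 dose 2.

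In testis the order by generation was seen for 2 of the receptors. Amhr2 ran from 210.1 ± 10.6 CPM in F1 controls to 143 ± 5.43 CPM in the F2 paternal dose 2 cross, with the 3 F1 groups on top, and Acvr2a from 30.6 ± 2.04 CPM in the F2 maternal dose 2 cross to 23.1 ± 3.31 CPM in F1 dose 1, with the 3 F1 groups at the bottom. Inha ran from 157 ± 20.7 CPM in F1 dose 2 to 86.9 ± 8.84 CPM in the F2 paternal dose 2 cross, Inhbb from 34.6 ± 3.94 CPM in F1 controls to 25.4 ± 0.121 CPM in the F2 paternal dose 2 cross, and Amh from 6.13 ± 1.62 CPM in F1 dose 2 to 3.12 ± 0.584 CPM in the F2 control cross. Acvr2b was the steadiest of the family, at 8.16 ± 0.572 CPM in its highest group and 7.15 ± 0.405 CPM in its lowest. Relative to the mean, the spread within a group was widest for Inhba, in testis at 1.126 ± 0.639 CPM in F1 dose 1 and in ovary at 708 ± 555 CPM in F1 dose 2.

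**Figure D2:**
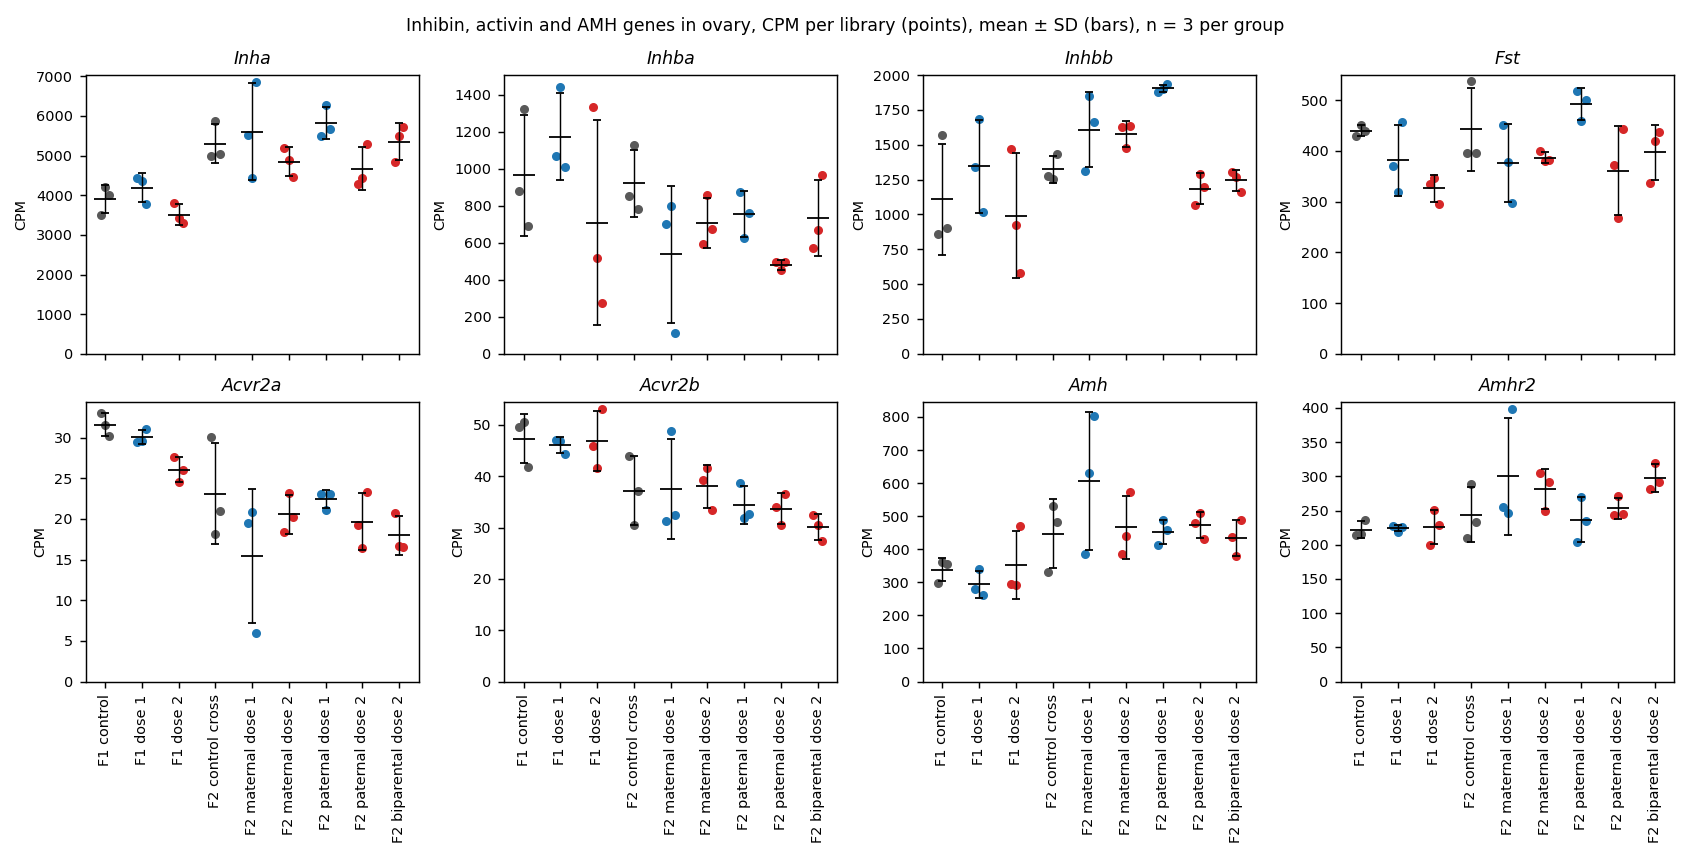
CPM of the 8 genes in each of the 27 ovary libraries (vertical axes, starting at 0) by group (horizontal axis; grey controls, blue dose 1, red dose 2); points are libraries A to C from left to right and bars give mean ± SD (n = 3). Inhba has the widest spread, from 114 to 1444 CPM, and F2 maternal dose 1 C is its lowest library.

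**Figure D3:**
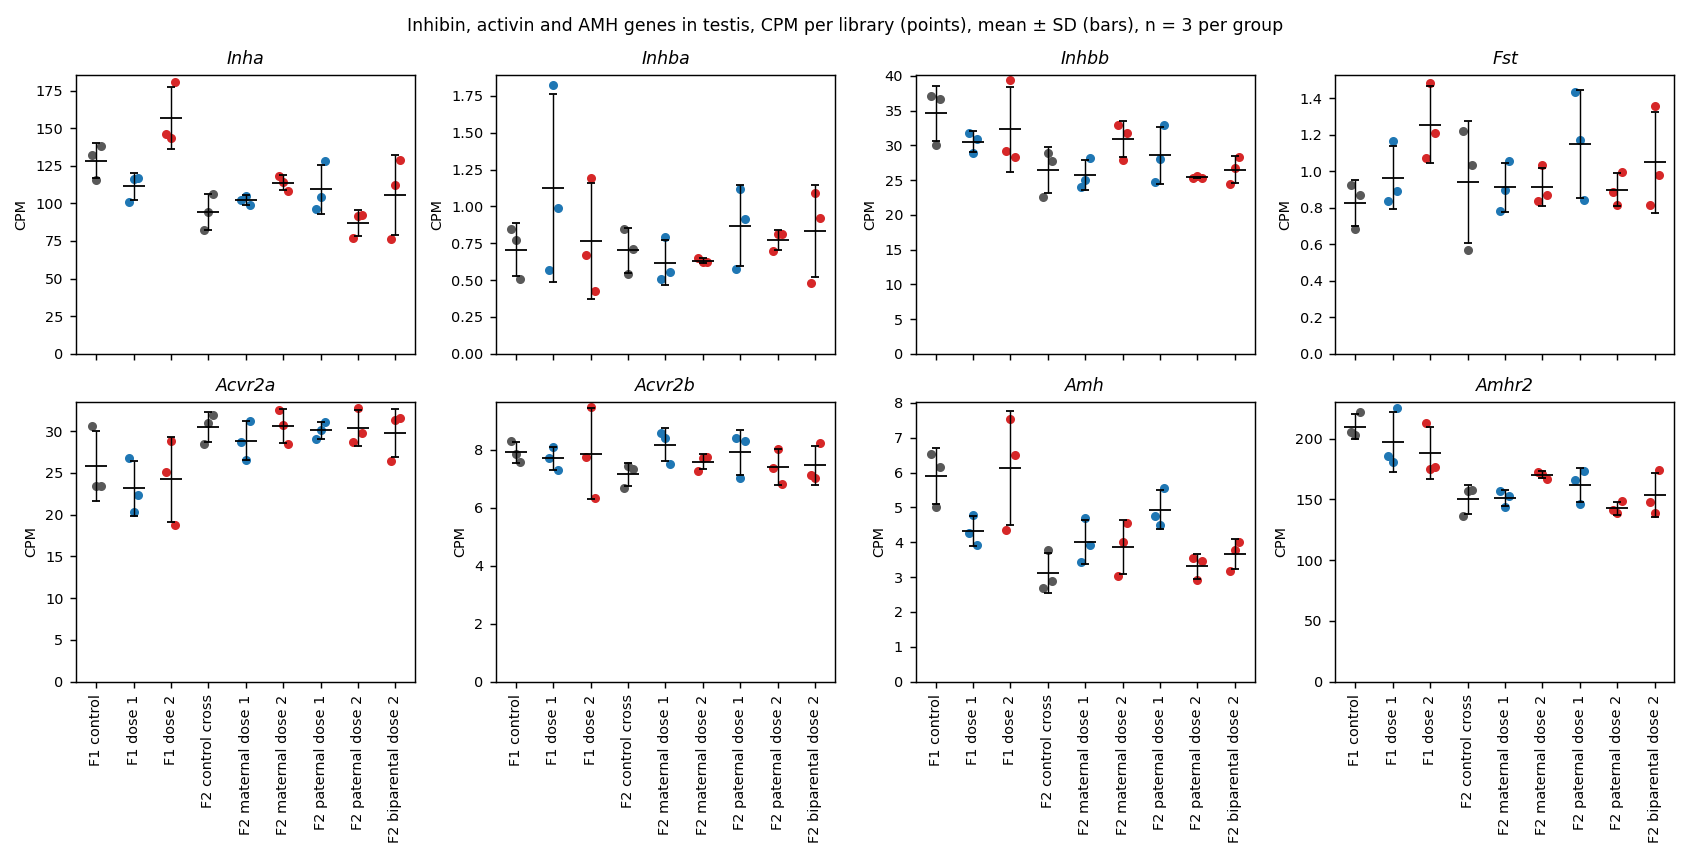
CPM of the 8 genes in each of the 27 testis libraries, drawn as for ovary. Inhba and Fst stay under 2 CPM in all libraries, and Amhr2 and Inha are the highest of the family.

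Exposure was compared in 20 ways: 14 set an exposed group against its own control, and 6 set the doses, or the maternal and paternal crosses, against each other. By edgeR none of the 8 genes passed in any of the 20. Of the 160 gene tests 18 had an unadjusted p under 0.05, which is 11.2%, where the mean share over all genes in the same comparisons was 7.63%. DESeq2 called 3 of the 160, and of all genes in the table it called 0.00761% to 1.82% in a comparison. Groups did not overlap in 23 of the 160 tests (14.4%, against a mean of 12.7% over all genes). The comparisons within a tissue and generation share control libraries and are not separate results. The plot of log2 fold changes gives the estimates and intervals against controls.

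**Figure D4:**
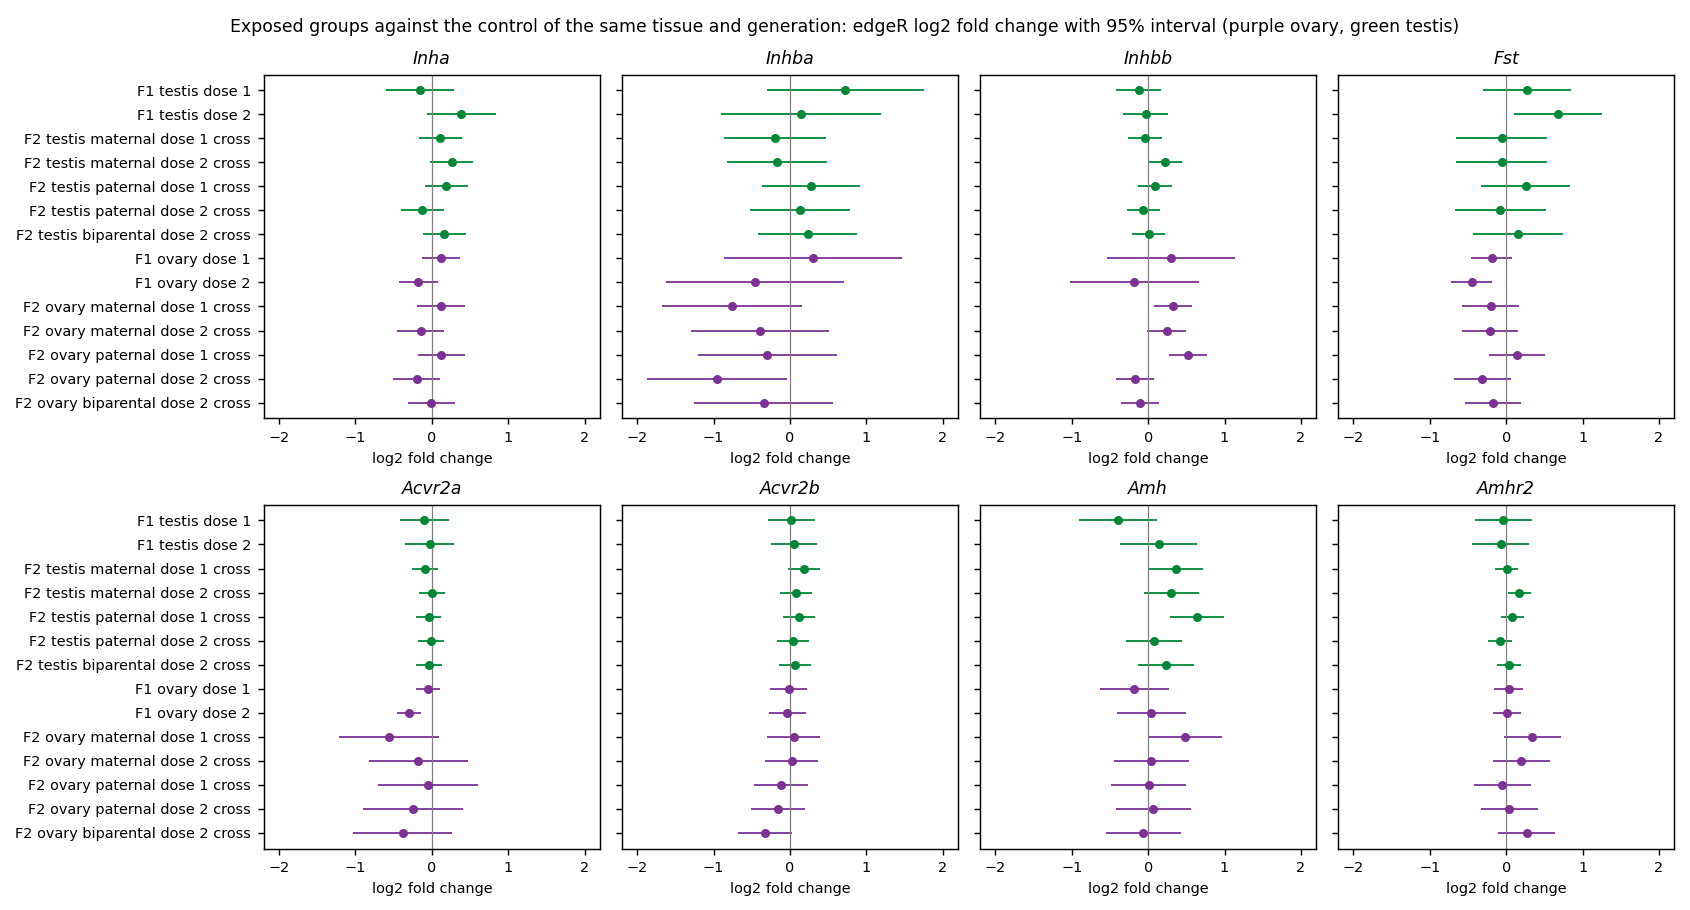
Log2 fold change (horizontal axes) of each gene in the 14 exposed groups against their own controls (vertical axis; green testis, purple ovary), from edgeR, with bars for 95% intervals (n = 3 per group). Most intervals include 0, those of Inhba are the widest, and Inhbb in the F2 ovary paternal dose 1 cross and Amh in the F2 testis paternal dose 1 cross lie to the right of 0.

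In the F1 ovary at dose 2, Fst and Acvr2a lay below the controls in every library. Fst was at 335, 347 and 296 CPM at dose 2 and 429.8, 451 and 439 CPM in controls, with 369.6, 318 and 457 CPM at dose 1. The log2 difference from controls was -0.45 (95% interval -0.72 to -0.18, unadjusted p = 0.00445, edgeR adjusted p = 0.814). Acvr2a was at 27.6, 24.5 and 26.0 CPM against 33.0, 31.6 and 30.2 CPM (-0.30, interval -0.45 to -0.14, unadjusted p = 0.00232, edgeR adjusted p = 0.814). Those 2 of 8 genes did not overlap with controls, where 8.07% of all genes did not, and 0% of all genes passed, with 0 of the 8 called by DESeq2. Without F1 ovary control A the values were -0.48 for Fst and -0.28 for Acvr2a. The other 6 genes overlapped with controls; Inhba at dose 2 ranged from 274 to 1334 CPM and Inhbb from 579.9 to 1470 CPM, the highest of each in library A.

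At dose 1 in F1 ovary no gene of the 8 passed (0% of all genes), 0 had an unadjusted p under 0.05, DESeq2 called 0 and 0 lay apart from controls in every library (11% of all genes did). Inhba at dose 1 was 1071, 1444 and 1007 CPM against 881, 1323 and 689 CPM in controls, and Amh was 280.0, 341 and 261 CPM against 298, 361 and 354 CPM, both overlapping. Between the doses (0% of all genes passed; DESeq2 called 0 of the 8), only Acvr2a of the 8 did not overlap, beside 12.9% of all genes. It was lower at dose 2 than its 29.4, 29.6 and 31.0 CPM at dose 1 by -0.24 on the log2 scale (unadjusted p = 0.00717, edgeR adjusted p = 0.809), and Inha was at 3800.3, 3426 and 3291 CPM against 4434, 4367 and 3772 CPM (-0.30, unadjusted p = 0.0257, edgeR adjusted p = 0.809).

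In the F1 testis at dose 2 (0.00526% of all genes passed), Fst was at 1.07, 1.48 and 1.21 CPM against 0.924, 0.684 and 0.870 CPM in controls. All 3 dose 2 libraries lay above the controls, with a log2 difference of 0.68 (interval 0.11 to 1.25, unadjusted p = 0.0247, edgeR adjusted p = 0.982). Inha was at 146, 143 and 180.5 CPM against 132, 115 and 138 CPM, also without overlap (0.39, unadjusted p = 0.0817, edgeR adjusted p = 0.982). In all 2 of 8 genes did not overlap, beside 3.73% of all genes, and DESeq2 called 0 of the 8. Without dose 2 B and C, the libraries that stood apart, dose 2 A alone gave 0.43 for Fst (unadjusted p = 0.284) and 0.23 for Inha (unadjusted p = 0.210). That lone library is assumed to vary as the other groups do.

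Fst at dose 2 thus lay on opposite sides of its controls in the F1 gonads, below in ovary and above in testis. A test on these same libraries is no separate support for that pattern. The test of the tissue difference gave -1.10 on the log2 scale (SE 0.285, interval -1.68 to -0.53, unadjusted p = 0.000395), but it did not pass over all genes (edgeR adjusted p = 0.119; 0% of all genes passed). DESeq2 called it (adjusted p = 0.0351), as 1 of 335 genes, 1.28% of the 26264 in the table. The difference was -1.16 without F1 ovary control A (edgeR adjusted p = 0.664) and -0.90 without F1 testis dose 2 B and C (edgeR adjusted p = 0.269), and it passed without F1 testis dose 2 B (edgeR adjusted p = 0.0326), F1 ovary control B (0.0158) or F1 ovary control C (0.0158). In testis Fst was at 0.684 to 1.48 CPM in these libraries. Of the other members Inha had an unadjusted p under 0.05 in this test (-0.53, unadjusted p = 0.0205, edgeR adjusted p = 0.223). Fst and Inha were thus 2 of 8 genes with such a p, beside 14.7% of all genes.

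The same test of the tissue difference for the other 6 exposed groups passed for none of the 8 genes by edgeR, and DESeq2 called 0. For F1 dose 1 7.26% of all genes passed, 1456 of those 1510 with a negative difference. F1 ovary control A, with its spermatid markers, was in this test, and the share without it is not given here. Of the 8 genes 0 had an unadjusted p under 0.05, beside 17.2% of all genes. For the F2 biparental dose 2 cross, where 0.00481% of all genes passed, Acvr2b had an unadjusted p under 0.05 (-0.44, unadjusted p = 0.0277), beside 5.57% of all genes. In the other 4 F2 crosses 0% of all genes passed. Amh in the paternal dose 1 cross had an unadjusted p under 0.05 (-0.62, unadjusted p = 0.0483), beside 3.9% of all genes there.

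At dose 1 in F1 testis (0.021% of all genes passed, and of the 8 genes 0 passed, 0 had an unadjusted p under 0.05 and 0 were called by DESeq2), Amh was at 4.27, 4.78 and 3.92 CPM, below all 3 controls, with a log2 difference of -0.39 (unadjusted p = 0.116); it was 1 of 8 genes without overlap, beside 12.7% of all genes. Between the doses (0.0263% of all genes passed; DESeq2 called 0 of the 8), Inha was higher at dose 2 by 0.54 (unadjusted p = 0.0233) and Amh by 0.53 (unadjusted p = 0.0429), both with an edgeR adjusted p = 1. Inha was the 1 gene without overlap (7.3% of all genes), and Amh at dose 2 ran from 4.35 to 7.54 CPM. Without dose 2 B and C these differences were 0.37 and -0.0041, so that the one of Amh rests on libraries that stood apart.

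In F2 ovary, Inhbb had the smallest unadjusted p-values of the family. In the paternal dose 1 cross it was at 1881, 1898 and 1934 CPM, above the control cross at 1276, 1257 and 1435 CPM in every library. The log2 difference was 0.52 (interval 0.27 to 0.77, unadjusted p = 0.000437, edgeR adjusted p = 0.488, where 0.00575% of all genes passed), and DESeq2 called it (adjusted p = 0.0449), as 1 of 21 genes of the 26264 in the table. Inhbb was the 1 gene of the 8 without overlap, beside 13.1% of all genes. The maternal dose 2 cross was also above the control cross in every library, at 1627, 1473 and 1631 CPM (0.24, unadjusted p = 0.0575; 0% of all genes passed), and Inhbb was again the 1 gene without overlap, beside 12.7% of all genes. In the paternal dose 2 cross Inhbb was at 1067, 1291 and 1195 CPM, so that the maternal and paternal dose 2 crosses differed by 0.41 (interval 0.16 to 0.66, unadjusted p = 0.00290, edgeR adjusted p = 1; 0% of all genes passed, and DESeq2 called 0 of the 8). With Inhba, also higher in every maternal library, 2 of 8 genes did not overlap, beside 11% of all genes. Without F2 maternal dose 1 C, which shares in the estimate of the spread, the Inhbb values of these comparisons were 0.51, 0.24 and 0.41. Markers of other ovarian cells differed too: summed theca markers were 1803 to 3096 CPM in the paternal dose 1 cross and 1429 to 1989 CPM in the maternal dose 2 cross against 3719 to 4077 CPM in the control cross, and summed luteal markers 88.1 to 111 and 68.1 to 102 against 114 to 187 CPM. Neither cross overlapped with the control cross in either list. The luteal sum is mostly Prlr, with a median of 94.7 CPM over the ovary libraries, against 8.57 for Sfrp4, 2.33 for Ptgfr and 0.781 for Akr1c18. It therefore says little about luteal cells as such, and the part of these lists in the Inhbb values was not tested.

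Inhba in the F2 ovary of the paternal dose 2 cross was at 496, 450.5 and 494 CPM and in the control cross at 854, 1129 and 780.2 CPM, without overlap. The log2 difference was -0.96 with a wide interval, -1.87 to -0.04 (unadjusted p = 0.0419, edgeR adjusted p = 1; 0% of all genes passed), and without maternal dose 1 C in the fit it was -0.96 with an unadjusted p of 0.000202 and an edgeR adjusted p of 0.327. Inhba was the 1 gene of the 8 without overlap, beside 10.7% of all genes. In the biparental dose 2 cross, where both parents came from the dose 2 group, Inhba was at 572, 669 and 965 CPM and overlapped with the control cross, and 0 of the 8 genes had an unadjusted p under 0.05 (0% of all genes passed; DESeq2 called 0) and 0 lay apart in every library (15.6% of all genes). Summed granulosa markers, mostly Gja1, were 4233, 4356 and 5411 CPM in the paternal dose 2 cross. In the control cross they were 5330, 4919 and 4785 CPM, with overlap. Summed theca markers were mostly Cyp11a1 and Cyp17a1. They were lower in every paternal dose 2 library than in the control cross (1791 to 3484 against 3719 to 4077 CPM). So were summed luteal markers, mostly Prlr (70.2 to 103 against 114 to 187 CPM). The part of these 3 lists in the Inhba value was not tested.

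The values of the F2 ovary maternal dose 1 cross depended on its library C. There Inha was at 6864 CPM, Amh at 803 CPM and Amhr2 at 398 CPM, the highest of the 27 ovary libraries, while Inhba was at 114 CPM and Acvr2a at 5.99 CPM, the lowest. Libraries A and B of this cross had Inha at 5528 and 4431, Amh at 387 and 631, Amhr2 at 255 and 246, Inhba at 700.3 and 797, and Acvr2a at 19.6 and 20.9 CPM. None of the 8 genes passed against the control cross (0% of all genes; DESeq2 called 0), 0 lay apart in every library (9.35% of all genes), and 1 had an unadjusted p under 0.05, Inhbb at 1314, 1847 and 1666 CPM (0.32, unadjusted p = 0.0145, edgeR adjusted p = 0.353). Without library C, Amh moved from 0.48 to 0.21, Amhr2 from 0.34 to 0.06, Inhba from -0.76 to -0.28 and Acvr2a from -0.56 to -0.17. Without library A instead, Inhbb (0.46, edgeR adjusted p = 0.0195) and Amh (0.73, edgeR adjusted p = 0.0373) passed. Library C also had the lowest summed luteal markers of the ovary libraries (28.3 CPM, the others 68.1 to 238) and the highest oviduct markers (32.7 CPM, the others 10.4 to 32.2); their part was not tested.

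Against the paternal dose 1 cross (0.00575% of all genes passed), the maternal dose 1 cross had Amhr2 higher by 0.39 (unadjusted p = 0.0405, edgeR adjusted p = 0.394), with overlap, and DESeq2 called 0 of the 8. Fst was at 451, 379 and 298 CPM in the maternal and 518, 458 and 500.1 CPM in the paternal dose 1 cross, without overlap (-0.35, unadjusted p = 0.0615); with Inhbb and Acvr2a, also lower, 3 of 8 genes did not overlap, beside 14.3% of all genes. Without maternal dose 1 C the values were 0.12 for Amhr2, -0.21 for Fst and -0.11 for Acvr2a. Without maternal dose 1 A, Amh passed in this comparison (0.73, edgeR adjusted p = 0.0447).

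In F2 testis, Amh was above the control cross in the paternal dose 1 cross, at 4.76, 4.49 and 5.56 CPM against 2.69, 3.78 and 2.88 CPM. The log2 difference was 0.64 (interval 0.28 to 1.00, unadjusted p = 0.00148, edgeR adjusted p = 0.138; 0.201% of all genes passed), and DESeq2 called it (adjusted p = 0.0446), as 1 of 236 genes, 0.899% of the table. Amh was the 1 gene of the 8 without overlap, beside 17.8% of all genes. The other 4 crosses with an exposed parent had means of 3.30 to 4.01 CPM and overlapped with the control cross, whose mean of 3.12 ± 0.584 CPM (SD, n = 3) was the lowest of the 9 testis groups. The 9 summed Sertoli cell markers were 285 to 328 CPM in the paternal dose 1 cross and 276 to 279 CPM in the control cross; their part in the Amh value was not tested.

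Between the maternal and paternal dose 2 crosses of F2 testis (0.119% of all genes passed), Inha, Inhbb and Amhr2 were higher in every maternal library. Inha was at 119, 114 and 108 CPM against 76.7, 91.6 and 92.4 CPM (0.39, unadjusted p = 0.0104, edgeR adjusted p = 0.188). Inhbb was at 32.9, 27.9 and 31.8 CPM against 25.3, 25.5 and 25.3 CPM (0.28, unadjusted p = 0.0149, edgeR adjusted p = 0.210). Amhr2 was at 173, 171 and 167 CPM against 141, 139 and 149 CPM (0.25, interval 0.10 to 0.41, unadjusted p = 0.00289, edgeR adjusted p = 0.131), and DESeq2 called it (adjusted p = 0.0456), as 1 of 477 genes, 1.82% of the table. With Inhba, which lay lower, 4 of 8 genes did not overlap, beside 21.2% of all genes. Sertoli cell markers summed to 293 to 314 CPM in the maternal and 237 to 276 CPM in the paternal dose 2 cross, also without overlap, and their part in these values was not tested.

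Against the control cross, the maternal dose 2 cross (0.372% of all genes passed) had Inhbb at 0.22 (unadjusted p = 0.0496) and Amhr2 at 0.17 (unadjusted p = 0.0303), with edgeR adjusted p of 0.317 and 0.267, and DESeq2 called 0 of the 8. Inha and Amhr2 did not overlap there (21.6% of all genes). Nor did the summed Sertoli cell markers, at 293 to 314 CPM in the maternal dose 2 and 276 to 279 CPM in the control cross; their part was not tested. In the maternal dose 1, paternal dose 2 and biparental dose 2 crosses of F2 testis, where 0.0103%, 0.00516% and 0.0155% of all genes passed, none of the 8 had an unadjusted p under 0.05 and DESeq2 called 0. Acvr2b did not overlap in the maternal dose 1 cross (0.19; 11.8% of all genes did not), and 0 of the 8 in the paternal dose 2 (10.7%) and biparental dose 2 (12.3%) crosses. Between the maternal and paternal dose 1 crosses (0.0413% of all genes passed) edgeR and DESeq2 called 0 of the 8, 0 had an unadjusted p under 0.05 and 0 did not overlap (16.4%). In the F2 ovary of the maternal dose 2 and paternal dose 2 crosses DESeq2 also called 0 of the 8, and in the former 0 had an unadjusted p under 0.05.

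The intervals say how large a difference could have been missed. Over the 7 comparisons with a control in testis, those of Acvr2b reached from -0.29 to 0.40 and those of Acvr2a from -0.42 to 0.29 on the log2 scale, while those of Inhba reached from -0.90 to 1.75 and of Fst from -0.68 to 1.25. In ovary those of Inha reached from -0.50 to 0.43, of Inhbb from -1.02 to 1.14 of Inhba from -1.87 to 1.47 and of Acvr2a from -1.21 to 0.60. A difference of 1 on the log2 scale was therefore not excluded in either direction for ovarian Inhba and Inhbb, downward for ovarian Acvr2a, or upward for testicular Inhba and Fst.

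Unexposed F2 and F1 gonads also differed. Generation cannot be told apart from anything else in which the sets of libraries differed. In testis, Amh was lower in the F2 control cross (2.69, 3.78 and 2.88 CPM) than in F1 controls (6.52, 5.00 and 6.16 CPM), by -0.95 (edgeR adjusted p = 0.0398), and Amhr2 was lower (137, 157 and 158 against 205, 203 and 222 CPM), by -0.52 (edgeR adjusted p = 0.0398). Inhbb (-0.43, edgeR adjusted p = 0.0700) and Inha (-0.48, edgeR adjusted p = 0.130) were lower without passing, also with no overlap. Thus 2 of 8 genes passed, both lower, beside 0.516% of all genes, and 5 of 8 did not overlap, beside 30.1%. The number that passed was 0 without F1 control A or C or without F2 control cross A or C, 1 without F2 control cross B and 3 without F1 control B, where Inhbb passed too. Summed Sertoli cell markers were also lower in the F2 control cross (276 to 279 CPM) than in F1 controls (284 to 356 CPM), without overlap, and their part in these values was not tested. Inhbb also passed in a fit that blocks on the replicate letters (adjusted p = 0.0339) and by DESeq2 (0.0243), which called 2.87% of the table.

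In ovary, Inha was higher in the F2 control cross (4987, 5867 and 5051 CPM) than in F1 controls (3511, 4198 and 4012 CPM), by 0.51 (edgeR adjusted p = 0.0130). It was 1 of 8 genes that passed, where 20.8% of all genes did, and 2 of 8 did not overlap, beside 36.2% of all genes. The edgeR adjusted p of Inha was 0.102 without F1 ovary control A and 0.0788 without F2 control cross B. The exposed F2 ovaries were at 4295 to 6864 CPM and the exposed F1 ovaries at 3291 to 4434 CPM. Of the 31 other pathway genes tested in ovary, 1 was higher in F2 and 0 lower: Fshr, the FSH receptor gene of granulosa cells (58.7 ± 12.8 against 36.9 ± 0.784 CPM, n = 3; 0.74, edgeR adjusted p = 0.00983). Without F1 ovary control A it was 0.71 and did not pass (edgeR adjusted p = 0.0610), and 4.01% of all genes did. Summed granulosa markers had a median of 4919 CPM in the F2 control cross and 5491 CPM in F1 controls. Most of this sum is Gja1, with a median of 2933.5 CPM over the ovary libraries beside 5190 CPM for the sum. Fshr is itself on the list. The part of these markers in the Inha and Fshr values was not tested.

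The share of counts in genes with long transcripts (over 6000 bases), a property of a library, moved with several of these genes in ovary, as the plot against this share shows. It was 18.2 to 20.6% in F1 ovary and 13.1 to 18.8% in F2 ovary. Over the 27 ovary libraries Pearson's r with log2 CPM was 0.95 for Acvr2b (Spearman's rho 0.93), 0.71 for Acvr2a (0.88 without F2 maternal dose 1 C), -0.74 for Inha and -0.74 for Amhr2. For the other genes it was -0.59 for Amh, 0.33 for Inhba, -0.24 for Inhbb and -0.16 for Fst. Within generations it was 0.71 and 0.92 for Acvr2b in F1 and F2, -0.82 and -0.61 for Amhr2, 0.39 and 0.48 for Acvr2a, and 0.16 and -0.38 for Inha, so that the pooled value of Inha did not hold within F1. The lower Acvr2a and Acvr2b levels in F2 ovary thus went with a lower share of long transcripts. Their own longest transcripts, of 5686 and 3175 bases, are under the 6000 that define this class. Inhba, at 6390 bases, is the only gene of the family in it. The part of this share in any result was not tested. In F1 testis the share ran from 9.07% in dose 2 C to 16.7% in dose 2 B, the same libraries that stood apart, and over the 27 testis libraries r for Acvr2a was 0.89, with 0.88 within F1 and 0.19 within F2.

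**Figure D5:**
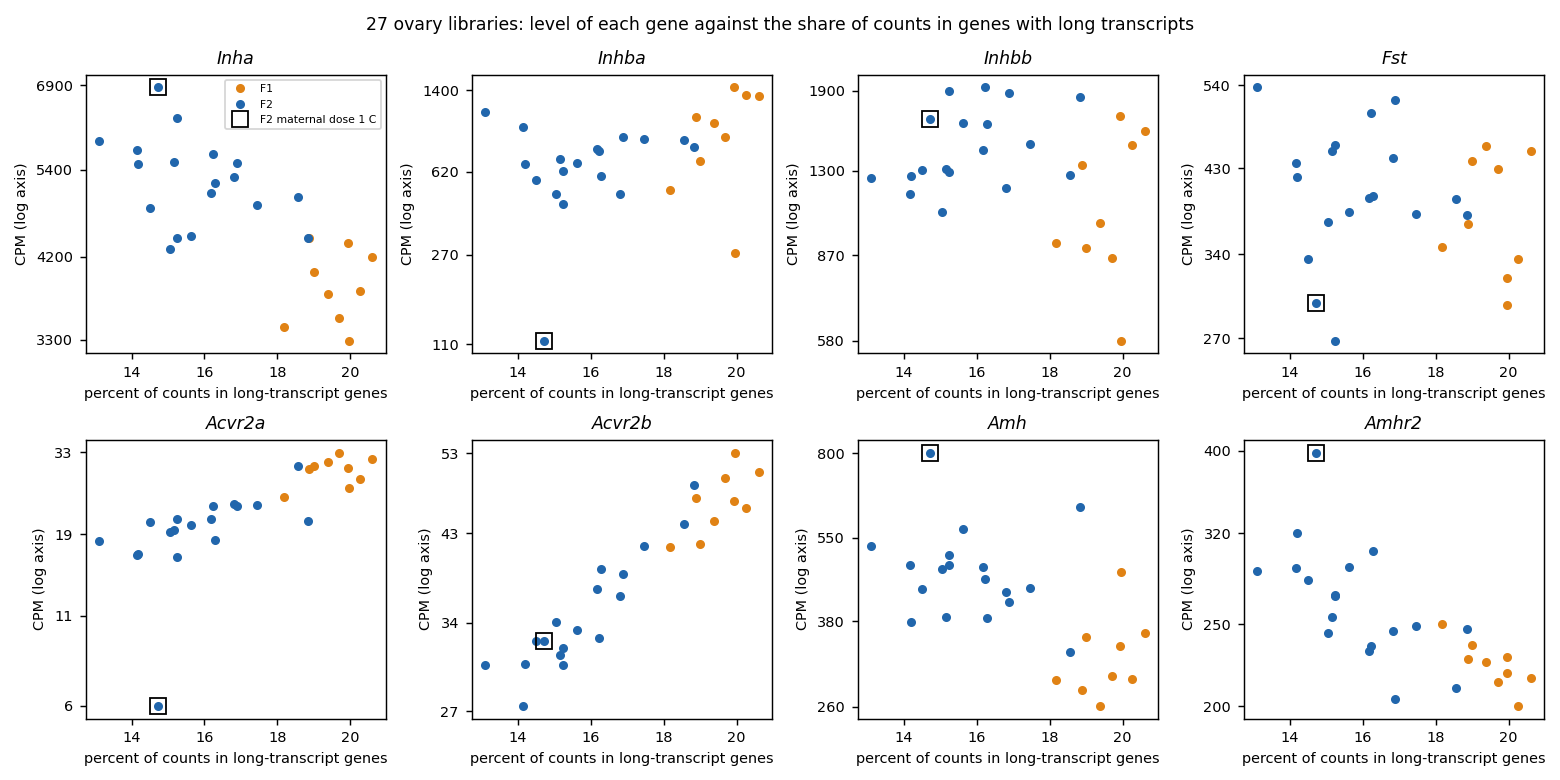
CPM of each gene (vertical axes, log scale) in the 27 ovary libraries against the percent of counts in genes with transcripts over 6000 bases (horizontal axes; orange F1, blue F2, square F2 maternal dose 1 C). Acvr2b rises along the axis, F1 libraries lie between 18.2 and 20.6%, and the marked library is lowest for Inhba and Acvr2a.

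Genes whose log2 CPM followed these genes most closely over the 27 libraries of a tissue were sought among the 10610 genes in ovary and 9544 in testis whose mean reached 10 CPM. In ovary the top gene was Dmxl1 for Acvr2a (r = 0.99), Sp1 for Acvr2b (0.97), Pex14 for Amhr2 (0.92), Eri3 for Inha (0.90), Krt8 for Amh (0.88), Prkar2b for Inhba (0.88), Tox2 for Inhbb (0.80) and Wdr41 for Fst (0.74). In testis it was Ap1g1 for Acvr2a (0.94), Clptm1 for Amhr2 (0.92), Vps51 for Inhbb (0.91), Ranbp1 for Amh (0.89), Lrpap1 for Inha (0.88) and Smg8 for Acvr2b (0.79); Inhba and Fst were too low in testis to be matched. Between members in ovary, the strongest values over all 27 libraries were negative, with r of -0.87 for Acvr2a and Amhr2, -0.77 for Acvr2a and Amh and -0.72 for Inha and Acvr2b. With F2 maternal dose 1 C left out these were -0.81, -0.69 and -0.72. The strongest value was then positive, 0.82 for Acvr2a and Acvr2b, which was 0.65 with that library. The value of 0.71 for Inhba and Acvr2a included F2 maternal dose 1 C, the lowest library for both, and was 0.37 without it. In ovary r was 0.63 for Inha and Inhbb, and in testis 0.71 for Inha and Amh. These values describe libraries that share depth, composition and generation.

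The other genes of the pathway were 33 listed ligands and binding proteins, type I receptors, SMADs, processing enzymes and regulators, of which 29 were tested in testis and 31 in ovary. None passed edgeR in any of the 20 exposure comparisons, where 41 of 600 tests had an unadjusted p under 0.05 (6.83%, against a mean of 7.63% over all genes). Between unexposed tissues 23 were higher and 5 lower in F1 ovary than in F1 testis (41.1% and 43.5% of all genes), and 22 were higher and 3 lower in F2 (43.4% and 43.0%); with RLE size factors 21 were higher in each generation, and 6 lower in F1 and 7 in F2. Without F1 ovary control A the F1 numbers were 22 higher and 5 lower. Among those with the 10 lowest p-values in F1, 4 regulators were higher in ovary: Foxl2, a granulosa cell factor, was 11.37 above testis on the log2 scale, Gata4 3.14, Gata6 3.13 and Fshr 2.93. Nr5a1, an orphan nuclear receptor that drives steroid genes and Amh, was at 416 ± 21.7 CPM in ovary and 40.6 ± 2.23 CPM in testis (n = 3 each; 2.91, edgeR adjusted p = 1.75e-23). Among receptors, Bmpr1b, a type I receptor that AMH can use, was at 179 ± 11.2 CPM and 0.363 ± 0.192 CPM (8.53, edgeR adjusted p = 1.35e-22), and Tgfbr3, the inhibin co-receptor betaglycan, was at 191 ± 17.1 CPM and 23.1 ± 4.46 CPM (2.60). Smad3, which carries the activin signal to the nucleus, was 3.75 higher and Smad7, an inhibitor of that signal, 3.33 higher. Chosen after their values were seen, 3 further genes show the other cases. Fstl3, a follistatin relative that binds activin, was lower in ovary at 5.74 ± 0.529 CPM against 11.4 ± 1.06 CPM (-1.43, edgeR adjusted p = 2.28e-12), as was Sox9, a Sertoli cell factor that drives Amh (-2.60, edgeR adjusted p = 2.52e-13). Acvr1b, the main activin type I receptor, was at 40.6 ± 4.39 CPM and 27.1 ± 5.91 CPM and did not pass (0.15, edgeR adjusted p = 0.374), with the sign changed under RLE size factors (-0.16, edgeR adjusted p = 0.334).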

How the data were processed

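The deposited tables hold raw counts of reads per gene, whole numbers that the authors did not normalise, 1 table per tissue with 27 libraries and 26264 genes; 0 columns were left without a sample. Libraries came from a ligation-based stranded mRNA kit and were read to 100 nt, per the labels. The submitters' processing notes name TopHat2 2.1.1, Bowtie2 2.4.5, SAMtools 1.13, featureCounts 2.0.3, DESeq2 1.32.0 and build mm39; annotation and strand setting were not given in the sources used here. Replicate libraries of a group differed by more than counting error (lowest chi-square per degree of freedom 7.43).

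Counts were fitted with edgeR 4.0.16 (R 4.3.3): TMM scaling, filterByExpr at a minimum count of 10, quasi-likelihood F test, Benjamini-Hochberg adjustment over all genes tested, threshold 0.05. Exposure comparisons used the libraries of 1 tissue and generation, generation contrasts the 27 of a tissue, and tissue contrasts and tissue differences all 54. Intervals are 95%. CPM were computed from library totals. Alternatives were RLE size factors, no filter, DESeq2 1.42.0, a replicate block, a fit of just the 6 libraries in question, a joint fit of the tissue's 27 libraries and the omission of each library in turn; fits without libraries that stand apart, and omissions in the tests of tissue difference, were chosen after seeing the data. All 8 genes are named in each result that concerns them, pathway genes where they passed, up to 10 with the lowest p (1 of these is not reported here), and like-pattern genes as the 3 highest r, of which the first is given. The genes and lists were chosen with earlier results of these data known. Lengths came from GENCODE vM21 by symbol (95.1% of genes matched) and sequences from RefSeq. The scripts were tested on simulated data: the share of altered genes found at 2-fold and at 4-fold was 20% and 83% for F1 testis dose 1 against control (18848 genes), 86% and 99% for F2 testis maternal dose 1 against control cross (19224 genes), 69% and 73% for F1 ovary dose 1 against control (17765 genes) and 63% and 93% for F2 ovary maternal dose 1 against control cross (17274 genes). In the same order 8, 10, 2 and 15 unaltered genes were called. No simulated library was made to stand apart as some real ones did, so these shares need not hold for the real data. Deviations of libraries with the same letter correlated over 0.1 for every letter in 1 of 24 comparisons, F2 ovary biparental dose 2 against control cross (0.18, 0.13 and 0.25). Over the 24 comparisons these correlations ran from -0.51 to 0.53, and the labels used here do not say that letters pair libraries.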

Additional observations from a re-analysis of the deposited data

Results flagged for a closer look

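Each of the 8 genes was screened in each exposed group. A result was flagged if all exposed libraries lay on opposite sides of their controls in ovary and testis. A tissue difference that passed by edgeR was flagged too. Only Fst at F1 dose 2 was flagged, by the first rule: all 3 exposed ovaries were below all 3 control ovaries (335, 347 and 296 against 429.8, 451 and 439 CPM), and all 3 exposed testes were above all 3 control testes (1.07, 1.48 and 1.21 against 0.924, 0.684 and 0.870 CPM). The tests below use the libraries that met the rule and are no separate support. The difference of the log2 fold changes, ovary minus testis, was -1.103 (95% interval -1.68 to -0.53, unadjusted p = 0.000395, edgeR adjusted p = 0.119), and DESeq2 gave an adjusted p of 0.0351. In this edgeR test 14.7% of all genes had an unadjusted p under 0.05, and DESeq2 called 335 genes. With RLE size factors, no filter and the replicate block the edgeR adjusted p of Fst ran from 0.122 to 0.186, and when 1 library was left out it ran from 0.0158 to 0.664. Groups of 3 libraries were not tested for single outliers.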

How the results depend on the processing

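The number of the 8 genes that passed was equal to, or within 1.5 times, the reported one in 388 alternatives, higher in 9 and lower in 9. The reported count was 0 in every exposure comparison and tissue difference, so most of these agreements are 0 against 0 and say little about stability. For single genes 2300 alternatives were counted as the same, 11 gained a call and 19 lost it. The sign changed in 2 where a call was present, and by at least the SE in 12 without a call. DESeq2 called 1 of the 8 genes where edgeR called 0 in the F2 testis paternal dose 1 cross (Amh, 0.899% of the table called) and between the F2 testis maternal and paternal dose 2 crosses (Amhr2, 1.82%). It did so too in the F2 ovary paternal dose 1 cross (Inhbb, 0.08%) and for the tissue difference of the F1 dose 2 effect (Fst, 1.28%). Between generations in testis the count was 0 with no filter on low counts and 0 to 3 when 1 library was left out, against 2 as reported. Between generations in ovary it was 0 with only the 6 libraries compared and 0 to 1 when 1 library was left out, against 1. Leaving out 1 library gave 0 to 2 in the F2 ovary maternal dose 1 cross, 0 to 1 between the F2 ovary dose 1 crosses and 0 to 1 for the tissue difference of the F1 dose 2 effect, each against 0. Between tissues the Amhr2 difference in F2 changed sign to -0.0435 with RLE size factors and -0.0435 with DESeq2; the cause was not tested.

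With the replicate letters as a block the count was the same in 30 of 31 comparisons and tissue differences. Among these was the F2 ovary biparental dose 2 cross, where the deviations correlated over 0.1 for every letter (0 genes with and without the block). The exception was the testis generation contrast, 3 against 2. Depth limits the low genes of testis, Inhba and Fst.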
